A study of Homo sapiens with 10 samples.

Results

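The integrated stress response and the genes switched on by its transcription factor ATF4 were followed as a set of 33 named genes. The members were chosen by name, as the central factors of this response and the targets usually listed for ATF4, and each was looked up by its symbol in the 2 expression tables of the study. All 33 were found among the 17642 genes of the siRNA table, and 32 were found among the 13029 genes of the *ZMAT3* table, where *NUPR1* is not listed. By role the members fall into 6 transcription factors, 5 feedback and stress effectors, 9 enzymes of amino acid and one-carbon synthesis, 3 amino acid transport genes and 10 genes of tRNA charging and export.

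In the integrated stress response, kinases that sense amino acid shortage, unfolded proteins, double-stranded RNA or heme deficiency phosphorylate the translation initiation factor eIF2. Most protein synthesis then slows, while the mRNA of *ATF4* is translated more, so ATF4 protein can rise without a change in its mRNA. ATF4 pairs with C/EBP proteins and binds composite C/EBP-ATF elements in genes for amino acid synthesis, amino acid import and tRNA charging, and also raises regulators that end the response or, when stress persists, favour cell death. Tumour cells, those of the colon included, are known to use this programme to meet their demand for amino acids.

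The sequence usually written for the C/EBP-ATF element, TGATGNAA, was searched on both strands in RefSeq promoter windows of GRCh38.p14, which run from 250 bases before to 50 bases after a start site. Windows could be matched for 28 of the 33 members, and 10 of those 28 held the motif in at least 1 window (35.7%). The same held for 1217 of the 27305 genes with a window (4.46%). Among the lists read further below, it held for 7 of 20 other ATF4 targets (35%) and 2 of 8 other cytosolic synthetase genes (25%). In the remaining lists the share was at most 7.14%. The 5 matches shown here are those whose surrounding 30 bases lie before the start site, with the motif in capitals, and they show the element that several members have in common.
*CHAC1*, chr15:40953251-40953280, plus strand: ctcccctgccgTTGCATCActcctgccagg
*ASNS*, chr7:97872458-97872487, minus strand: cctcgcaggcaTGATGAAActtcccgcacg
*CEBPG*, chr19:33374060-33374089, plus strand: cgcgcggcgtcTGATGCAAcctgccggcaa
*AARS*, chr16:70289675-70289704, minus strand: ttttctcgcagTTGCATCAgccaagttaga
*GARS*, chr7:30594834-30594863, plus strand: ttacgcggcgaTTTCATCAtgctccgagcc
The element reads on the strand of the gene in *ASNS* and *CEBPG* and on the opposite strand in *CHAC1*, *AARS* and *GARS*. It lies between 33 bases (*GARS*) and 209 bases (*CHAC1*) before the RefSeq start site of its window. The GENCODE gene spans, used for positions further below, begin upstream of these sites, so the stretches shown lie inside those spans. *SLC3A2*, *SLC7A1*, *CARS*, *MARS* and *NARS* held it at or near the start site, and the windows of *DDIT3*, *TRIB3*, *SESN2* and *PHGDH* did not hold these letters. A match in a window is a description of the sequence, and no binding was measured here.

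HCT116, a human colorectal cancer cell line grown in DMEM with 10% FBS, was the source of all 10 libraries. The paper names no drug treatment for these libraries, although the *ZMAT3* clones had been isolated after puromycin selection. In one experiment, 3 libraries came from a *ZMAT3*-WT clone and 3 from a *ZMAT3*-KO clone, in which a pair of CRISPR/Cas9 guides had been aimed at the p53 response element in an intron of *ZMAT3*, the gene of an RNA-binding protein induced by p53. Each genotype is 1 clone, so libraries of a group differ only as cultures of the same clone do, and a difference between clones cannot be told apart from an effect of the genotype. The sample descriptions also carry the abbreviations EV and unt, which are not explained. In the other experiment, HCT116 cells were transfected for 72 hr with a control siRNA (siCTRL) or a SMARTpool of 4 siRNAs against p53 (sip53), with 2 libraries each, and off-target effects of a single pool cannot be told apart from loss of p53.

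In the *ZMAT3* experiment the values are log2 CPM, the libraries share 1 distribution of values, and replicate libraries correlated at 0.995 to 0.996. In the siRNA experiment the values are FPKM that sum to between 708634 and 829230 per library, with a correlation between replicates of 0.964 for siCTRL and 0.958 for sip53. Read depth is unknown for both. *ZMAT3* itself fell by 2.89 on the log2 scale in *ZMAT3*-KO cells (adjusted p = 3.76e-12, limma) and stood at 12.0 and 13.6 FPKM with siCTRL and 3.16 and 1.97 with sip53. *CDKN1A*, the p53 target that encodes p21, stood at 525 and 481 FPKM with siCTRL and 34.2 and 37.7 with sip53 (adjusted p = 0.00869, limma), and in *ZMAT3*-KO cells it differed by -0.53 (adjusted p = 2.02e-08). The epithelial genes *EPCAM*, *KRT8*, *KRT18*, *CDH1* and *CDX2* were measured in both experiments, whereas *VIL1* is not listed in the *ZMAT3* table and stayed between 0.13 and 0.22 FPKM in the siRNA table. Of 7 markers of blood, stromal and endothelial cells, the *ZMAT3* table lists only *COL1A1*, and the siRNA table lists *COL1A1* and *PDGFRB*, the latter at no more than 0.23 FPKM. *COL1A1* ranged from 3.20 to 3.29 log2 CPM in *ZMAT3*-WT and from 3.38 to 3.45 in *ZMAT3*-KO cells, and from 4.08 to 5.41 FPKM with siCTRL and from 5.96 to 7.06 with sip53. The part of these markers in the results was not tested.

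Loss of *ZMAT3* was first compared with wild type. *CHAC1* and *ASNS* rose, both by more than the threshold of a 1.5-fold change at an adjusted p of 0.05, and no member fell by that rule. These 2 of 32 members stand beside 8.96% of all 13029 genes called, 4.6% higher and 4.37% lower, a share of the members close to that of all genes. Smaller differences were more frequent: without the fold threshold, 19 members were higher and 6 were lower past the adjusted threshold, against 28.7% and 30.1% of all genes. All 3 *ZMAT3*-KO libraries lay above all 3 *ZMAT3*-WT libraries for 22 members and below them for 6, against 31.3% and 32.9% of all genes. The median log2 fold change of the members was 0.16, beside -0.0052 for all genes. In RNA from whole cultures, a lower level can come from fewer cells of a type or from less RNA per cell, and these cannot be told apart.

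Among the transcription factors, all 5 that were measured were higher in *ZMAT3*-KO cells at an adjusted p of 0.05, and none reached 1.5-fold. *DDIT3*, which encodes the stress factor CHOP, read 1.58, 1.52 and 1.46 log2 CPM in *ZMAT3*-WT cells against 2.12, 1.88 and 1.88 in *ZMAT3*-KO cells. The groups did not overlap, and 1 *ZMAT3*-KO library lay above the other two, with a log2 fold change of 0.44 ± 0.10 (SE, adjusted p = 0.0025). *ATF4* read 8.11, 8.10 and 8.14 log2 CPM in *ZMAT3*-WT and 8.38, 8.36 and 8.50 in *ZMAT3*-KO cells. This small difference of 0.29 ± 0.04 exceeded the spread between libraries (adjusted p = 1.58e-05). *ATF5*, a related factor whose translation is also controlled through eIF2, differed by 0.33, *CEBPB* by 0.27 and *CEBPG*, both C/EBP partners of ATF4, by 0.11 on the log2 scale.

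The feedback and stress effectors moved in both directions. *CHAC1*, a glutathione-degrading enzyme, held the largest difference of all members in this experiment. It read 1.78, 1.84 and 1.87 log2 CPM in *ZMAT3*-WT and 3.29, 3.24 and 3.23 in *ZMAT3*-KO cells. The groups were far apart compared with their spread, a 2.69-fold difference with a log2 fold change of 1.43 ± 0.07 (SE, adjusted p = 3.68e-09). *TRIB3*, a pseudokinase that restrains ATF4, read 5.83, 5.73 and 5.72 log2 CPM in *ZMAT3*-WT and 6.27, 6.25 and 6.35 in *ZMAT3*-KO cells, and its 1.44-fold difference stayed under the fold threshold (adjusted p = 2.48e-07). *SESN2*, an inhibitor of mTORC1 signalling that p53 also induces, was higher by 0.21 (adjusted p = 0.00285). *PPP1R15A*, the GADD34 subunit that brings phosphatase to eIF2 and so ends the response, went the other way. It read 6.15, 6.19 and 6.20 log2 CPM in *ZMAT3*-WT and 5.88, 5.86 and 5.92 in *ZMAT3*-KO cells, a difference of -0.30 (adjusted p = 7.6e-06). For the secreted glycoprotein gene *STC2* the libraries overlapped (0.09, adjusted p = 0.0911).

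Amino acid synthesis held the other called member. *ASNS*, the asparagine synthetase gene that is a standard readout of ATF4, read 5.96, 5.89 and 5.93 log2 CPM in *ZMAT3*-WT and 6.63, 6.60 and 6.66 in *ZMAT3*-KO cells. It was 1.63-fold higher without overlap, with a log2 fold change of 0.70 ± 0.03 (SE, adjusted p = 2.37e-09). *PHGDH*, which opens the synthesis of serine, was next with 6.96, 6.82 and 6.85 against 7.38, 7.31 and 7.37 log2 CPM, a 1.39-fold difference (adjusted p = 3.02e-07). The later steps of the serine pathway differed much less, by 0.08 for *PSAT1* (adjusted p = 0.0159) and 0.05 for *PSPH*, which did not pass (adjusted p = 0.279). *ALDH18A1* and *PYCR1*, which lead from glutamate to proline, were higher by 0.28 and 0.19. Mitochondrial one-carbon genes split, with *SHMT2* higher by 0.17 (adjusted p = 0.000374) and *MTHFD2* different by -0.10 (adjusted p = 0.00461). *PCK2*, the mitochondrial phosphoenolpyruvate carboxykinase gene, showed 0.01 (adjusted p = 0.882).

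Both subunits of the large neutral amino acid exchanger were lower in *ZMAT3*-KO cells at an adjusted p of 0.05. *SLC3A2*, the heavy chain, read 8.34, 8.28 and 8.29 log2 CPM in *ZMAT3*-WT and 8.03, 7.99 and 8.03 in *ZMAT3*-KO cells. *SLC7A5*, the light chain that carries leucine, read 10.05, 9.99 and 9.96 against 9.80, 9.83 and 9.73. The groups did not overlap for either gene, with log2 fold changes of -0.28 (adjusted p = 2.02e-06) and -0.21 (adjusted p = 0.000165), both under the fold threshold. The arginine and lysine transporter gene *SLC7A1* showed 0.08 and missed the adjusted threshold (adjusted p = 0.0524).

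The tRNA genes showed small differences of either sign. Of the 9 aminoacyl-tRNA synthetase genes among the members, which attach amino acids to their tRNAs, *MARS*, *YARS*, *CARS* and *GARS* were higher by 0.29, 0.25, 0.23 and 0.15 on the log2 scale. *XPOT*, which exports tRNA from the nucleus, read 7.21, 7.32 and 7.37 log2 CPM in *ZMAT3*-WT and 7.64, 7.68 and 7.61 in *ZMAT3*-KO cells. Its difference of 0.35 (adjusted p = 7.31e-06) was the largest of this group. *NARS* and *WARS* were lower, by values of -0.14 (adjusted p = 0.000492) and -0.09 (adjusted p = 0.0172). For *AARS*, *SARS* and *EPRS* the values were 0.06, 0.07 and -0.05, and none passed the adjusted threshold. Among the small differences of all roles, those of *CEBPG*, *PSAT1* and *WARS* missed the adjusted threshold when 1 library was left out, with adjusted p-values of up to 0.0919, 0.0822 and 0.0732.

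**Figure D1:**
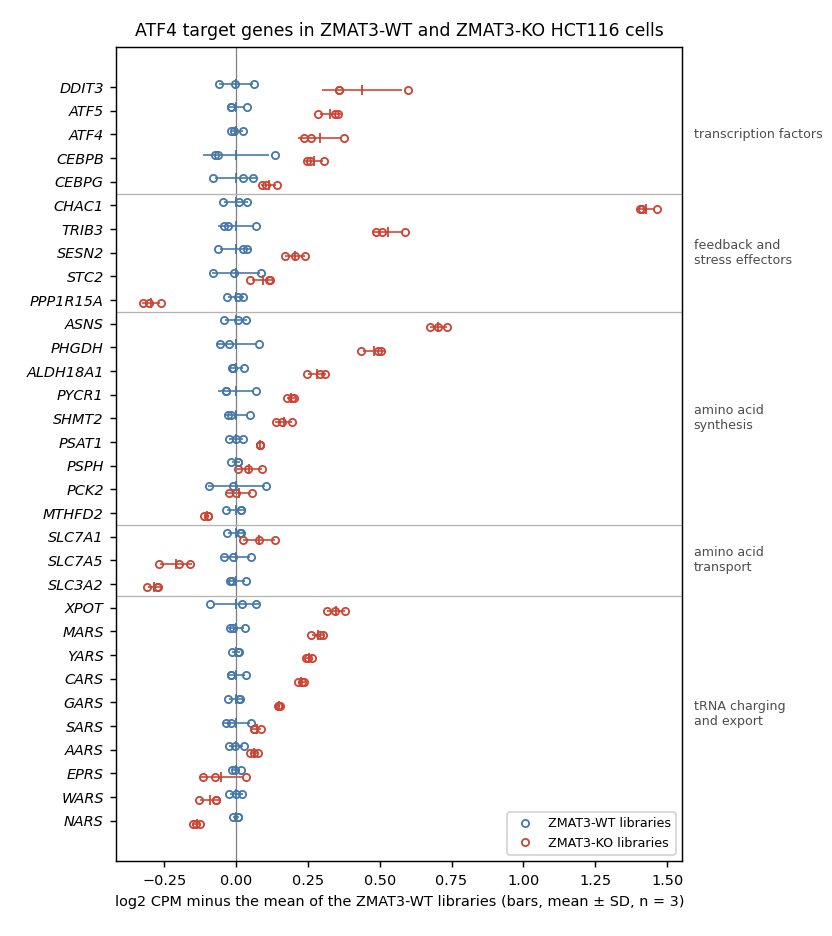
Each of the 32 members measured in the *ZMAT3* experiment is plotted by library as log2 CPM minus the mean of the *ZMAT3*-WT libraries, with bars for the mean ± SD (n = 3 per genotype) and members grouped by role. *CHAC1* at 1.43 and *ASNS* at 0.70 lie farthest to the right, while *PPP1R15A*, *SLC3A2* and *SLC7A5* lie to the left of the *ZMAT3*-WT libraries.

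Knockdown of p53 was compared with the control siRNA by unadjusted p, the rule the study used for this experiment, on log2(FPKM + 0.1), a scale that understates changes of genes near zero. *DDIT3*, *CHAC1*, *ASNS*, *PHGDH*, *XPOT*, *AARS*, *TRIB3* and *NUPR1* rose, and *SESN2* and *WARS* fell. *NUPR1* passed the filter of a mean of 0.5 FPKM only through the sip53 libraries and so had to be higher. Without it, 7 of 32 members were higher and 2 lower, beside 5.57% and 9% of the 13770 genes that reached 0.5 FPKM in the mean of each group, a comparison added after the values were seen. With it, 8 were higher and 2 lower of 33, beside 15.1% of the 14274 tested genes called, 5.86% higher and 9.28% lower. After adjustment 1 member, *DDIT3*, passed, against 0.035% of all genes higher and 0.238% lower. Both sip53 libraries lay above both siCTRL libraries for 17 members (16 without *NUPR1*) and below them for 4, against 20.1% and 26.3% of all genes. The median log2 fold change of the members was 0.31 (0.28 without *NUPR1*), beside -0.04 for all genes, and 0.19 without siCTRL replicate 1. Fewer members were called higher without siCTRL replicate 1 or siCTRL replicate 2, and fewer lower without any 1 of the 4 libraries. Fewer of all genes were called in each of these fits too, in both directions. When each library was centred on its median gene, the share of higher genes among all calls went from 38.7% to 51.7%, with 9 members higher and 2 lower. Of all 14274 genes, 1120 were then called higher and 1048 lower.

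*DDIT3* (ENSG00000175197, chr12:57516588-57521737, minus strand, GRCh38) showed the largest difference of the members. It stood at 6.27 and 6.02 FPKM with siCTRL and at 27.1 and 31.8 FPKM with sip53. Both sip53 libraries were several times above both controls, a 4.71-fold difference with a log2 fold change of 2.24 ± 0.18 (SE, unadjusted p = 4.09e-05, adjusted p = 0.0387, limma). Its adjusted p ranged from 0.0212 to 0.176 over the settings planned, the highest of them without a filter on low FPKM. It was 0.145 without siCTRL replicate 1, 0.126 without siCTRL replicate 2 and 0.0705 without sip53 replicate 2. The gene shares 355 exonic bases with *MARS1*, the current name of *MARS*, and 58 with *MBD6*, both on the opposite strand. Whether reads were counted by strand in this table is not given in the sources used here. A further 105 exonic bases are shared with a protein-coding gene on its own strand, ENSG00000285133, which counting by strand would not separate. *MARS* itself stood at 89.8 and 99.7 FPKM with siCTRL and at 93.6 and 81.9 with sip53.

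The other transcription factors did not move as one. *NUPR1*, a small stress-induced chromatin protein, was barely expressed, at 0.27 and 0.28 FPKM with siCTRL and 0.58 and 1.3 with sip53. The sip53 libraries were higher but apart from each other (log2 fold change 1.38 ± 0.53, unadjusted p = 0.0460, adjusted p = 0.317), and the call was lost without siCTRL replicate 1, siCTRL replicate 2 or sip53 replicate 2. Its value was 0.86 without sip53 replicate 2 and 0.58 with a pseudocount of 1 FPKM. *NUPR1* shares 909 exonic bases with a lncRNA on its own strand. *ATF4* stood at 217 and 162 FPKM with siCTRL and at 228 and 342 with sip53, a difference of 0.57 that did not pass (unadjusted p = 0.0945). Its lower sip53 library lay just above its higher siCTRL library, and its value was 0.87 without sip53 replicate 1, where it passed (unadjusted p = 0.0405), and 0.28 without sip53 replicate 2. *CEBPB* and *CEBPG* showed 0.51 and 0.38 without overlap (unadjusted p = 0.101 and 0.113), and *CEBPB* passed without sip53 replicate 2 (0.81). *ATF5* stood lower with sip53, at 7.47 and 9.70 against 13.1 and 10.8 FPKM, and did not pass (-0.47, unadjusted p = 0.0812).

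Among the effectors, *CHAC1* and *SESN2* changed in opposite directions with a small spread. *CHAC1* (ENSG00000128965, chr15:40952962-40956512, plus strand) stood at 3.75 and 3.45 FPKM with siCTRL and at 9.18 and 9.53 with sip53. It was 2.56-fold higher, with a log2 fold change of 1.35 ± 0.19 (SE, unadjusted p = 0.000557, adjusted p = 0.0869). *SESN2* (ENSG00000130766, chr1:28259518-28282491, plus strand), an antioxidant sestrin and a known p53 target, stood at 15.6 and 15.8 FPKM with siCTRL and at 6.58 and 6.74 with sip53. It was 2.34-fold lower (log2 fold change -1.22 ± 0.17, unadjusted p = 0.000612, adjusted p = 0.0886). *TRIB3* stood at 14.7 and 17.5 FPKM with siCTRL and at 25.8 and 21.3 with sip53. Its difference of 0.54 passed the unadjusted threshold of limma (unadjusted p = 0.0400, adjusted p = 0.302) and was lost without siCTRL replicate 1, siCTRL replicate 2 or sip53 replicate 1. *STC2* showed 0.40 without overlap (unadjusted p = 0.0746). *PPP1R15A* stood at 23.2 and 16.2 FPKM with siCTRL and at 20.4 and 35.5 with sip53, so that the groups overlapped (unadjusted p = 0.217), and it passed without sip53 replicate 1 (0.87).

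In amino acid synthesis 2 enzymes approximately doubled. *PHGDH* (ENSG00000092621, chr1:119648411-119744218, plus strand) stood at 35.6 and 38.9 FPKM with siCTRL and at 81.1 and 84.4 with sip53. It was 2.22-fold higher, with a log2 fold change of 1.15 ± 0.17 (SE, unadjusted p = 0.000904, adjusted p = 0.101). *ASNS* (ENSG00000070669, chr7:97851677-97872542, minus strand) stood at 38.0 and 43.8 FPKM with siCTRL and at 80.0 and 86.3 with sip53. It was 2.03-fold higher, with a log2 fold change of 1.02 ± 0.18 (SE, unadjusted p = 0.00201, adjusted p = 0.122). Both genes kept their unadjusted call whichever library was left out, as did *DDIT3*, *CHAC1* and *SESN2*. The 2 enzymes after *PHGDH* in serine synthesis did not pass: *PSAT1* stood at 44.6 and 61.8 FPKM with siCTRL and at 82.2 and 55.9 with sip53 (unadjusted p = 0.242), and *PSPH* at 16.3 and 20.4 against 21.6 and 18.1 (unadjusted p = 0.603). *MTHFD2* was higher without overlap and missed the threshold (0.54, unadjusted p = 0.0789), which it passed without sip53 replicate 2 (0.77), and *ALDH18A1* was lower without overlap and missed it too (-0.44, unadjusted p = 0.0559). For *SHMT2*, *PYCR1* and *PCK2* the groups overlapped, with values of -0.18, -0.13 and 0.06. *ASNS* shares 2415 exonic bases with a lncRNA on its own strand in GENCODE release 44, and *ASNS*, *ATF4*, *MTHFD2* and *PSAT1* have between 4 and 7 annotated pseudogenes, among which reads can be split.

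None of the 3 transport genes passed in the siRNA experiment. *SLC3A2* stood at 80.9 and 112 FPKM with siCTRL and at 142 and 114 with sip53 (0.42, unadjusted p = 0.141). *SLC7A5* overlapped between groups (0.21, unadjusted p = 0.336), and *SLC7A1* was higher by a little in both sip53 libraries (0.18, unadjusted p = 0.333).

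Of the tRNA genes, *XPOT* and *AARS* rose and *WARS* fell. *XPOT* (ENSG00000184575, chr12:64404392-64451125, plus strand) stood at 20.3 and 18.3 FPKM with siCTRL and at 34.3 and 31.4 with sip53. It was 1.70-fold higher (log2 fold change 0.76 ± 0.18, unadjusted p = 0.00654, adjusted p = 0.172), and the unadjusted p was 0.0658 without siCTRL replicate 2. *AARS* (annotated as *AARS1*, chr16:70251983-70289707, minus strand), the alanyl-tRNA synthetase gene, stood at 65.8 and 72.7 FPKM with siCTRL and at 93.6 and 110 with sip53. *WARS* (annotated as *WARS1*, chr14:100333790-100376805, minus strand), the tryptophanyl-tRNA synthetase gene that interferon also induces, stood at 80.0 and 72.0 FPKM with siCTRL and at 51.4 and 50.2 with sip53. Their log2 fold changes of 0.56 (unadjusted p = 0.0304, adjusted p = 0.275) and -0.58 (unadjusted p = 0.0195, adjusted p = 0.234) were lost as calls whichever of the 4 libraries was left out. The remaining 7 synthetase genes did not pass. Of these, *GARS* stood at 184 and 85.4 FPKM with siCTRL and at 104 and 233 with sip53, and *NARS* at 127 and 73.4 against 60.7 and 106. In both genes siCTRL replicate 1 and sip53 replicate 2 were high together, so the spread within a group exceeded the difference between groups. *ATF4* and *PPP1R15A* were also higher in these libraries than in the other of their group. Over all tested genes, the deviations of these libraries from their group means correlated at 0.616.

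**Figure D2:**
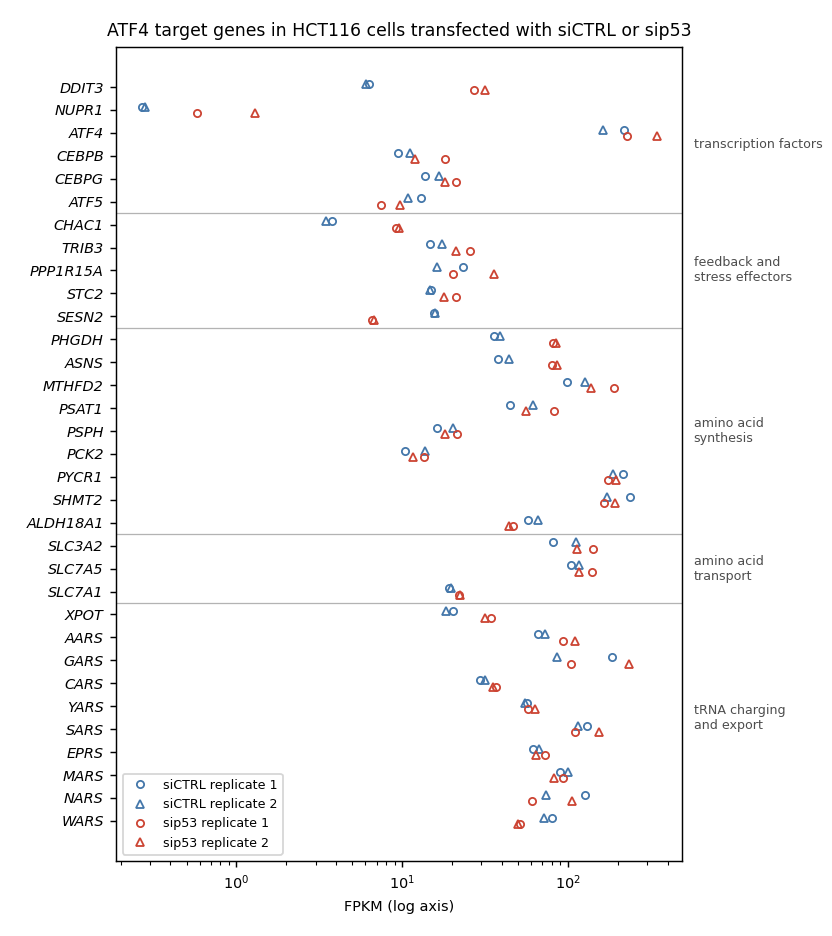
The FPKM of the 33 members is plotted on a log axis for the 2 siCTRL and 2 sip53 libraries (circles, replicate 1; triangles, replicate 2), grouped by role. *DDIT3*, *CHAC1*, *PHGDH* and *ASNS* show both sip53 libraries well to the right of both siCTRL libraries, *SESN2* shows the reverse, and *GARS* and *NARS* show replicates far apart.

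Since FPKM is scaled by length, levels can be compared between genes in this table. With siCTRL the members spanned a wide range, from 204 ± 44.6 FPKM for *SHMT2*, 202 ± 19.6 for *PYCR1* and 189 ± 38.7 for *ATF4* (mean ± SD, n = 2) down to 0.275 ± 0.0071 for *NUPR1*. The 3 highest differed by less than their spread. The lowest after *NUPR1* were *CHAC1* at 3.60 ± 0.21 and *DDIT3* at 6.15 ± 0.18. *DDIT3* was at the percentile 36.5 of the tested genes by siCTRL level and *CHAC1* at 26.5, whereas *ATF4* was at 96.3.

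The experiments were then placed side by side for the 32 members measured in both. They share no libraries, but each was normalized and tested on its own, and the difference between the effects was not tested. The log2 fold change of *CHAC1* was 1.43 after *ZMAT3* loss and 1.35 after p53 knockdown, and in the same order that of *ASNS* was 0.70 and 1.02, *PHGDH* 0.48 and 1.15, *TRIB3* 0.53 and 0.54, *XPOT* 0.35 and 0.76, and *DDIT3* 0.44 and 2.24. These 6 genes were higher at an adjusted p of 0.05 in *ZMAT3*-KO cells and at an unadjusted p of 0.05 with sip53, and *WARS* was lower by both. *SESN2* passed in opposite directions, at 0.21 and -1.22. Of the 11370 genes tested in both experiments, 1.7% were higher by both rules, 2.9% lower by both and 5.46% opposite. Without a threshold, 19 members had a positive log2 fold change in both experiments, 2 a negative one in both, 6 a positive one only in *ZMAT3*-KO cells and 5 only with sip53. Joint signs over all genes were not counted. By experiment, 6398 of 13029 genes were above zero in *ZMAT3*-KO cells and 6553 of 14274 with sip53. In 13 members the groups did not overlap and lay higher in both experiments, in 1 (*WARS*) lower in both, and in 5 they lay apart in opposite directions, against 6%, 9.08% and 16.8% of the genes tested in both. *ATF5* and *ALDH18A1*, higher in *ZMAT3*-KO cells, and *SLC3A2* and *MTHFD2*, lower in those cells, are among these 5 with *SESN2*. *ZMAT3* RNA was low in both the *ZMAT3*-KO and the sip53 libraries, as given above, and *CDKN1A* RNA was also lower in both (-0.53 and -3.80). Whether either has a part in the values of the members was not tested.

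**Figure D3:**
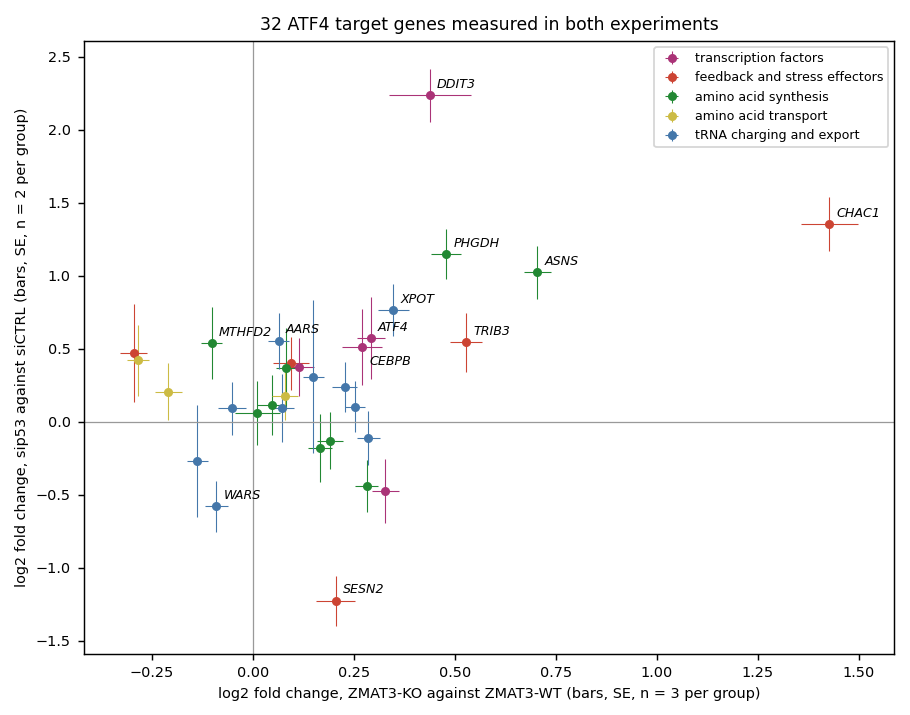
The log2 fold change of each of the 32 members measured in both experiments is plotted for *ZMAT3*-KO against *ZMAT3*-WT (x axis) and sip53 against siCTRL (y axis), with bars for the SE and colours for the roles. *CHAC1*, *ASNS*, *PHGDH*, *DDIT3*, *XPOT* and *TRIB3* lie in the upper right, and *SESN2* lies lowest, at 0.21 and -1.22.

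The rest of the pathway was read from lists of genes that are not members. On the sensing side in *ZMAT3*-KO cells, of 18 genes for eIF2 kinases, eIF2, its exchange factor eIF2B and their regulators, 4 were higher and 4 lower past the adjusted threshold, beside the 28.7% and 30.1% of all genes, and none reached 1.5-fold. *EIF2AK3*, which encodes PERK, the kinase of the endoplasmic reticulum, read 3.64, 3.73 and 3.81 log2 CPM in *ZMAT3*-WT and 4.24, 4.30 and 4.16 in *ZMAT3*-KO cells (0.51, adjusted p = 9.54e-06). *EIF2B5*, the catalytic subunit of eIF2B, named after its values were seen, differed by 0.43 (adjusted p = 1.04e-07). The other kinases showed -0.08 for *EIF2AK4* (GCN2, adjusted p = 0.0325), 0.09 for *EIF2AK2* (PKR, adjusted p = 0.0508) and -0.0057 for *EIF2AK1* (HRI, adjusted p = 0.865). With sip53, 1 of the 18 genes passed, 2 without sip53 replicate 2, beside 15.1% of all genes in the full fit. *EIF2AK2*, which interferon induces, stood at 75.7 and 61.4 FPKM with siCTRL and at 24.2 and 29.5 with sip53, a log2 fold change of -1.35 (unadjusted p = 0.00104, adjusted p = 0.105). *EIF2AK3* stood at 7.37 and 6.66 against 9.25 and 9.81 FPKM and did not pass (0.44, unadjusted p = 0.0568), *EIF2AK1* showed 0.31 and *EIF2AK4* -0.13.

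Among 24 further genes usually listed as ATF4 targets, 21 were measured in the *ZMAT3* experiment, with a median of 0.15. By the 1.5-fold rule 5 of them rose and 1 fell, beside 4.6% and 4.37% of all genes. The number that rose was 4 with a pseudocount of 1 CPM, and the number that fell was 2 without *ZMAT3*-WT replicate 2 or 3 or *ZMAT3*-KO replicate 1 or 3. *SLC7A11*, the cystine importer gene, read 4.94, 5.14 and 5.11 log2 CPM in *ZMAT3*-WT and 5.99, 6.12 and 6.06 in *ZMAT3*-KO cells (0.99, adjusted p = 7.08e-09). The neutral amino acid transporter genes *SLC1A4* and *SLC43A1* were each close to 2-fold higher, with 1.01 (adjusted p = 2.08e-07) and 1.01 (adjusted p = 9.04e-05). *SLC43A1* was low, and its value was 0.59 with a pseudocount of 1 CPM. *KLHL24* (0.83) and *ADM2* (0.67) complete the 5 and were named after their values were seen. *ATF3*, a stress-induced repressor that p53 also induces, read 5.09, 5.01 and 4.90 log2 CPM in *ZMAT3*-WT and 3.85, 3.76 and 3.77 in *ZMAT3*-KO cells (-1.21, adjusted p = 1.73e-09). With sip53, none of the 20 tested genes of this list rose and 1 fell, beside 5.86% and 9.28% of all genes, and the median was 0.03. The number that rose was 1 without siCTRL replicate 1, sip53 replicate 1 or sip53 replicate 2, and 2 with centred libraries, and the number that fell was 2 without sip53 replicate 1. *DDIT4*, an mTORC1 inhibitor named after its values were seen, stood at 83.9 and 111 FPKM with siCTRL and at 182 and 127 with sip53 (0.66, unadjusted p = 0.0525). The gene that fell, *GDF15*, a secreted stress cytokine and p53 target, stood at 244 and 211 FPKM with siCTRL and at 40.0 and 56.9 with sip53 (-2.25, unadjusted p = 0.00016, adjusted p = 0.0531), and its value in *ZMAT3*-KO cells was -0.58, just under the fold threshold. *SLC7A11*, *SLC1A4* and *SLC43A1* showed -0.22, -0.01 and -0.55 with sip53 and did not pass. *ATF3* was not lower with sip53, at 22.4 and 18.4 FPKM against 16.1 and 19.0 with siCTRL (0.22, unadjusted p = 0.332).

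The synthetase genes outside the members had medians below that of all genes in both experiments. Of the 11 other cytosolic synthetase genes, 1 was higher and 7 were lower in *ZMAT3*-KO cells past the adjusted threshold, with a median of -0.07. By the same threshold 28.7% of all genes were higher and 30.1% lower. Of the 17 mitochondrial synthetase genes, 3 were higher and 10 lower, with a median of -0.12, and none of either list reached 1.5-fold. *WARS2*, named after its values were seen, lay just under it (0.58, adjusted p = 9.11e-05), and 1 mitochondrial gene was called higher without *ZMAT3*-WT replicate 2 or 3 or *ZMAT3*-KO replicate 1 or 2. With sip53 the medians of these lists were -0.07 (cytosolic) and -0.11 (mitochondrial), beside -0.04 for all genes, and 10 genes of each had a negative value. *DARS*, the cytosolic aspartyl-tRNA synthetase gene and the only 1 of its list with a positive value, rose from 56.6 and 49.4 to 81.4 and 88.9 FPKM (0.69, unadjusted p = 0.0119, adjusted p = 0.201). The mitochondrial *FARS2* and *LARS2* fell, with -0.64 (unadjusted p = 0.0307) and -0.53 (unadjusted p = 0.0259). Of all genes, 5.86% rose and 9.28% fell by that rule. Each of these 3 calls was lost when some single library was left out, that of *LARS2* with any of the 4. Of 13 other folate and glycine genes, 11 were measured in *ZMAT3*-KO cells, with 3 higher and 4 lower past the adjusted threshold, near the shares of all genes. Only 1, *GLDC* of glycine cleavage, fell past 1.5-fold (-0.60, adjusted p = 5.87e-05), a call lost without *ZMAT3*-WT replicate 2 or *ZMAT3*-KO replicate 1. None of the 12 tested with sip53 passed, and *GLDC* showed 0.01. All members and lists were chosen with earlier results of these data known, so the counts describe these lists and were given no test.

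**Figure D4:**
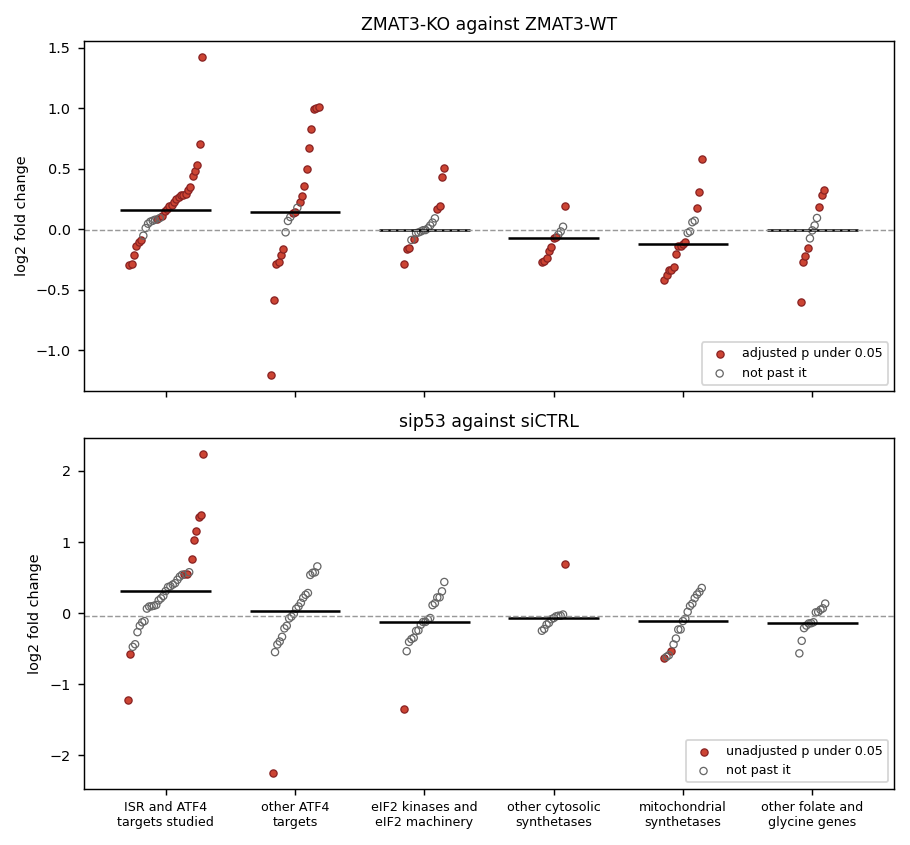
The log2 fold changes of the members and of 5 further lists are plotted for each experiment, 1 point per gene, filled at an adjusted p under 0.05 (*ZMAT3*) or an unadjusted p under 0.05 (sip53), with a solid line for the median of the list and a dashed line for the median of all genes. The medians of the members, 0.16 and 0.31 (0.28 without *NUPR1*), lie above the dashed lines in both panels. That of the other ATF4 targets lies at 0.15 in *ZMAT3*-KO cells and at 0.03 with sip53.

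Keratin genes moved with the genotype in the *ZMAT3* experiment, *KRT8* with -0.94 (adjusted p = 1.05e-10) and *KRT18* with -0.82 (adjusted p = 1.3e-10), while *EPCAM* (0.0085, adjusted p = 0.807) and *CDH1* (0.05, adjusted p = 0.254) did not pass. With sip53, *EPCAM* rose by 0.60 (unadjusted p = 0.0234, adjusted p = 0.247), a call lost without any 1 of the 4 libraries, and the keratins did not pass. Whether these shifts have a part in the values of the members was not tested.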

How the data were processed

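RNA-seq of HCT116 cells was deposited in 2 tables. For the *ZMAT3* libraries the authors used Cutadapt, the STAR aligner (hg38) and RSEM, and deposited log2 CPM values with 1 distribution shared by the libraries. For the siRNA libraries the authors deposited values read here as FPKM, although TPM cannot be told apart from the sums alone, and which aligner made them is not given in the sources used here (the submitters' processing notes name TopHat2 2.0.8 for all libraries, with no role). Neither table holds counts, so depth is unknown. The fold changes, p-values and scores of the authors' own comparisons, which both tables also hold, were not used.

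Groups came from the sample labels. Each table was fitted across all its genes with limma 3.58.1 in R 4.3.3 (lmFit, then eBayes with a trend of the variance, Benjamini-Hochberg, two-sided). log2 CPM was used unfiltered, and log2(FPKM + 0.1) where the mean reached 0.5 FPKM. Calls needed an adjusted p of 0.05 with a 1.5-fold change (*ZMAT3*) or an unadjusted p of 0.05 (siRNA). An exact permutation test could not go below 0.1 with 3 against 3 libraries or 0.333 with 2 against 2, and p-values measure only the spread between these libraries. All members were named, with the eIF2 kinases and, of each other list, up to 4 called genes with the largest change. Members and lists were chosen with earlier results of these data known. The gene targeted by sip53 is not reported here. The fit was tested on simulated data with 200 changed genes: of 2-fold changes, 98.5% were called with 3 against 3 libraries (*ZMAT3*) and 85.1% with 2 against 2 (siRNA), where 6.03% of unchanged genes were also called. Positions came from GENCODE release 44 and promoters from RefSeq (GRCh38.p14), matched by symbol or current name.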

Additional observations from a re-analysis of the deposited data

How the results depend on the processing

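In the *ZMAT3* experiment 2 members were higher and 0 lower, beside 599 and 569 of all genes. The member counts were the same without the variance trend, with a pseudocount of 1 CPM and with a minimum mean log2 CPM of 0. They were also the same without any single library. Centring the libraries could change little, because they share 1 distribution of values, and gave the same counts. The median of the members lay between 0.146 and 0.172 when a library was left out. Its move from 0.157 to 0.172, without *ZMAT3*-WT replicate 1, exceeded the spread of the median between replicates (SD 0.0132). Without a fold threshold 19 members were higher and 6 lower, and with a 2-fold threshold 1 was higher. Of all genes, 3734 were higher and 3925 lower without a fold threshold, and 200 and 196 with the 2-fold threshold. In the siRNA experiment 8 members were higher (7 without *NUPR1*) and 2 lower, beside 836 and 1325 of all 14274 genes. An adjusted p of 0.05 left 1 higher and 0 lower, beside 5 and 34 of all genes. The unadjusted p of 0.05 with an added 1.5-fold threshold left 6 higher, without *AARS* and *TRIB3* and with *NUPR1*, and 1 lower. Of all genes it left 688 higher and 1104 lower. Leaving out single libraries gave 4 to 8 higher, 1 lower and a median of 0.189 to 0.294. The median was 0.386 with centred libraries and 0.276 with a minimum of 5 FPKM, which leaves out *NUPR1*, against 0.31 (0.28 without *NUPR1*). No member called by these rules changed sign under any setting. The call of *NUPR1* was also lost with a pseudocount of 1 FPKM and that of *TRIB3* without a variance trend.

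Replicate numbers are shared between groups but do not pair the libraries: deviations of same-numbered libraries correlated at -0.039, -0.022 and -0.093 in the *ZMAT3* experiment and at -0.616 in the siRNA experiment. With the replicate number as a block, *ZMAT3*-KO cells again had 2 members higher and 0 lower, beside 603 and 575 of all genes. In the same way sip53 had 5 higher and 1 lower, beside 434 and 650, with *AARS*, *NUPR1*, *TRIB3* and *WARS* lost. A crossed pairing, added after the negative correlation was seen, gave 17 members higher and 5 lower, and 2410 and 3128 of all genes. Depth is unknown, so precision rests on the 2 or 3 libraries per group.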
